A study of Mus musculus with 39 samples.

Results

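The receptor tyrosine kinase genes Pdgfra, Kit and Kdr lie next to each other on mouse chromosome 5, and their chromatin was followed through the sorted populations of naive extra-embryonic endoderm (nEnd), an endoderm culture derived from embryonic stem cells. Every CUT&Tag peak listed between chr5:74900000 and chr5:76400000 (GRCm38) was taken and given to the nearest of the 3 transcription start sites (TSS). Of 432096 peaks in 36 lists, 393 lay in this window of 1.5 Mb, with 153 nearest to Pdgfra, 116 to Kit and 124 to Kdr, and 35 of the 36 lists had at least 1. The genes were picked for their place and family, not for their measured values, with Pdgfra added as the gene of the sorting marker. Earlier results of these data were known when they were picked.

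CUT&Tag uses an antibody to bring a transposase to a histone mark, so that the DNA around the mark is cut and sequenced. The cells carried an OCT4-mCherry reporter, came from 1 reporter line and received no treatment. They were separated by FACS into cells positive for OCT4-mCherry alone (Oct4+), for OCT4-mCherry and surface PDGFRA (DP) and for PDGFRA alone (Pdgfra+), and 4 marks were profiled in 3 replicates of each population. In the methods of the study, nEnd was expanded from cells sorted for PDGFRA and grown on a layer of embryonic fibroblasts, so the Oct4+ cells descend from PDGFRA-positive cells and the sort removes feeder cells only as far as the gates do. Since PDGFRA protein defined the populations, a difference at the Pdgfra gene follows the sort itself. Whether the replicates were separate cultures is not stated in the labels, and p-values measure the spread between these libraries.

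PDGFRA, KIT and KDR (the VEGF receptor VEGFR2) are cell surface kinases that dimerise when their ligand binds and signal through phosphorylated tyrosines. PDGFRA is a classical marker of primitive endoderm in the mouse blastocyst, KIT is the receptor of stem cell factor in germ cells, melanocytes and blood progenitors, and KDR drives the growth of blood vessels. H3K27ac marks active promoters and enhancers, H3K4me1 marks enhancers whether active or primed, H3K27me3 is laid down by Polycomb repressive complex 2, typically over CpG-rich promoters of silent developmental genes, and H3K9me3 marks heterochromatin.

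The annotation placed Pdgfra at chr5:75152292-75198215 and Kit at chr5:75574916-75656722, both on the plus strand, and Kdr at chr5:75932827-75978458 on the minus strand. Their TSS were 423 kb (Pdgfra to Kit) and 404 kb (Kit to Kdr) apart. Since H3K27me3 typically lies over CpG-rich promoters, the 200 bases before the earliest start of each gene in GENCODE or RefSeq are printed. These stretches run 5′ to 3′ on the gene's strand, with every CpG in capitals. They lay at chr5:75152051-75152250 (+), chr5:75574716-75574915 (+) and chr5:75978459-75978658 (−) of GRCm38. At Kit and Kdr this is the start given above, and at Pdgfra it is a RefSeq start slightly upstream of it.
Pdgfra promoter: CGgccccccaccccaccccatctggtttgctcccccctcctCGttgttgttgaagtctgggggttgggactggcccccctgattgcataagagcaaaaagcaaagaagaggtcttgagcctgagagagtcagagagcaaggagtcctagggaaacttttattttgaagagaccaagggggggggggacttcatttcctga
Kit promoter: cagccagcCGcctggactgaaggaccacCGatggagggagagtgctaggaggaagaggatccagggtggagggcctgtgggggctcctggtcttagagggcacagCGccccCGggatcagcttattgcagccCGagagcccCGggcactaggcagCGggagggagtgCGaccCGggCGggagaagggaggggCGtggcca
Kdr promoter: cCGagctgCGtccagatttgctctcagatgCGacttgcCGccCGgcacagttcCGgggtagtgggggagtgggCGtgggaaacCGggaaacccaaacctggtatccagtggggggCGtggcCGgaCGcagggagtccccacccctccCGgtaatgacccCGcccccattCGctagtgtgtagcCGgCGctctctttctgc
The stretches held 2 CpG (Pdgfra), 11 (Kit) and 16 (Kdr). Among 27025 genes with a RefSeq promoter the median was 5 CpG in the same length before the start, and 23.9%, 67.9% and 79.5% of genes had fewer CpG than Pdgfra, Kit and Kdr, respectively. GC content was 55.0% at Pdgfra, 69.0% at Kit and 66.0% at Kdr. The Pdgfra stretch was thus poor in CpG, unlike those of its neighbours. Bases after the start were not counted. The sequence is the same in every population, and whether CpG content bears on H3K27me3 here was not tested.

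The 3 distal stretches printed here are the centres of an element upstream of Pdgfra, an element between Pdgfra and Kit and an element inside Kit. Each is the 200 bases around the signal maximum of the peak with the highest unscaled maximum there (H3K4me1 upstream of Pdgfra and inside Kit, H3K27ac between the genes), which fixes a position and is no ranking of libraries, on the plus strand of GRCm38, at chr5:75137826-75138025, chr5:75377563-75377762 and chr5:75597490-75597689. Capitals mark a match to 1 of 7 motifs searched on both strands.
Pdgfra upstream element: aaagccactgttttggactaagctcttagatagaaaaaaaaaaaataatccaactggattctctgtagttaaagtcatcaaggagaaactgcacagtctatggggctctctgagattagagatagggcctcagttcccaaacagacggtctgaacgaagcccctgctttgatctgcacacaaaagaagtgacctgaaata
Pdgfra-Kit intergenic element: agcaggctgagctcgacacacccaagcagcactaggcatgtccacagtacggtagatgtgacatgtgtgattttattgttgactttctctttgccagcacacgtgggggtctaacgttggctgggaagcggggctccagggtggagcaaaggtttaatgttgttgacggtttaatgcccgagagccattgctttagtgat
Kit intronic element: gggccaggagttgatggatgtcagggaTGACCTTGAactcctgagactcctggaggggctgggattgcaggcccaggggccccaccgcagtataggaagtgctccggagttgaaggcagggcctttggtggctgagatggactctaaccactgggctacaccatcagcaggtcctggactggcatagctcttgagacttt
The motifs were that of GATA factors (AGATAA and the variant TGATAA), SOX (ACAATG), POU (ATGCAAA), ESRR (TCAAGGTCA), STAT (TTCCNGGAA), AP-1 (TGANTCA) and TEAD (GGAATG). The single match was the ESRR motif in the Kit intronic element, on the minus strand at bases 28 to 36. Of 4 centres searched, the one not printed, of an H3K4me1 element before the Kit TSS (chr5:75538437-75538636), held no match. In the same length around the centres of all 26495 H3K4me1 regions, 1.13% held the ESRR motif, 22.5% GATA, 13.7% SOX, 3.91% POU, 0.819% STAT, 7.83% AP-1 and 14.5% TEAD. Around the centres of 78962 H3K27ac regions, the GATA motif was found in 15.8% and the ESRR motif in 0.599%. In the 200 bases before 32851 RefSeq starts the shares were 13.2% for GATA and 0.277% for ESRR. The absence of a match says only that those letters are not in these windows. The GATA search and its shares did not take in AGATAG, which the printed Pdgfra upstream element holds.

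The lists differed widely in length, from 1074 peaks (H3K4me1, Pdgfra+ replicate 2) to 65131 (H3K27ac, Oct4+ replicate 2), and sequencing depth is unknown, so a missing peak does not show that the mark was missing. As a measure of how much each list could show, a peak lay no more than 20 kb from the TSS of 3.26 to 35.9% of the 21938 protein-coding genes for H3K4me1, 17.6 to 74.0% for H3K27ac, 5.47 to 31.9% for H3K27me3 and 7.33 to 28.5% for H3K9me3. Endoderm and pluripotency markers were read as a check of the sort, and 0 of them passed the test described below. In that test even the smallest possible p stayed above the threshold after adjustment. All 6 DP and Pdgfra+ libraries exceeded all 3 Oct4+ libraries in covered H3K27ac length at 5 of 12 endoderm markers (0.672% of all genes tested), namely Foxa2, Lama1, Lamb1, Col4a1 and Col4a2, the last of which are divergent neighbours and share their peaks. The reverse held at 6 of 9 tested pluripotency markers (5.44% of all genes), among them Nanog and Sox2. The endoderm markers Dab2 and Lamc1 had their highest mean H3K27ac length in Oct4+ cells. The means in Oct4+, DP and Pdgfra+ were 0.953, 0 and 0 kb at Dab2 and 1.97, 0.955 and 0 kb at Lamc1. For H3K4me1, Oct4+ lay wholly above the other 6 libraries at 3.37% of all genes tested and wholly below at 0.435%. Neither group lay wholly above the other at any of the 12 endoderm markers. Among 9 tested pluripotency markers, Oct4+ lay wholly above in H3K4me1 at 2 and wholly below at 1, Klf4. For H3K27me3, all 3 Oct4+ libraries exceeded the other 6 at 6 of 9 tested endoderm markers (0.714% of all genes), among them Gata6 and Sox17. Gata4 was not among them, and its mean H3K27me3 length was higher in DP than in Oct4+ cells. For the feeder layer, the number of 12 fibroblast markers with H3K27ac this close ran from 0 to 5 per Oct4+ library, was 0 or 1 per DP library and 0 in every Pdgfra+ library, and among the collagen genes Col1a1 had it in 2 Oct4+ libraries and in no other, while Col1a2 and Col3a1 had none in any library. Over all protein-coding genes the share with H3K27ac this close was 29.6 to 74.0% per Oct4+ library, 17.6 to 47.7% per DP library and 24.7 to 33.7% per Pdgfra+ library. The highest shares over all genes were thus in Oct4+ libraries too, and the cause of the higher marker counts was not tested.

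**Figure D1:**
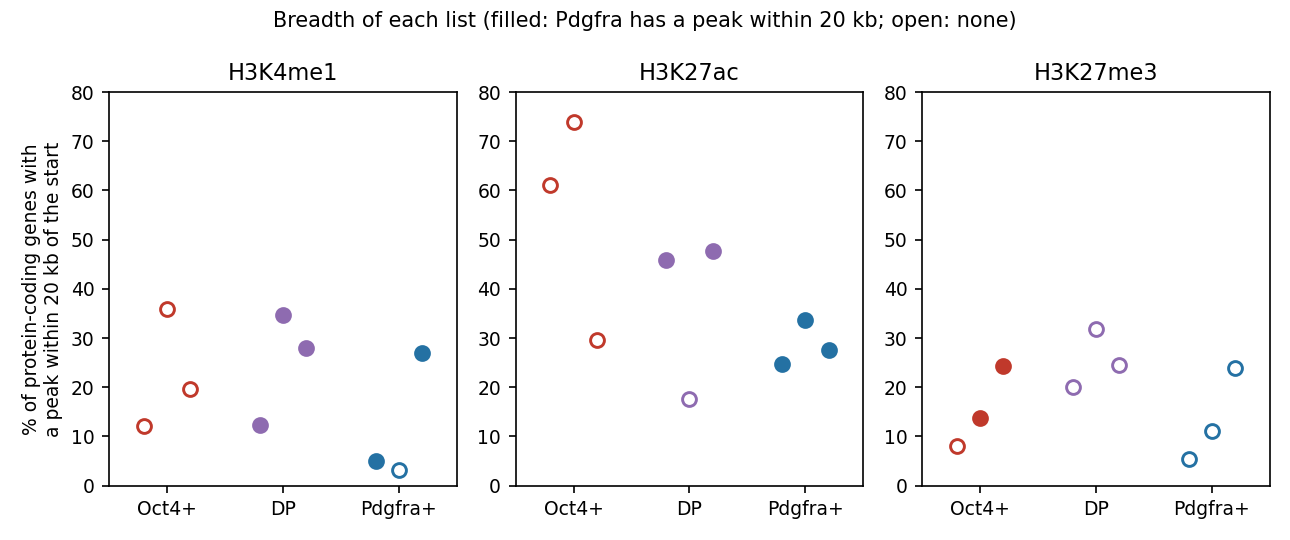
Each point is a library, placed by the percentage of protein-coding genes that have a listed peak up to 20 kb from the TSS, for H3K4me1, H3K27ac and H3K27me3 in the 3 populations. Filled points had a peak within 20 kb of the Pdgfra TSS and open points had none. The broadest H3K27ac list (Oct4+ replicate 2, 74.0% of genes) is an open point, while the 3 Pdgfra+ lists at 24.7, 33.7 and 27.6% are filled.

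At Pdgfra, the listed peaks of 3 marks differed between the populations. H3K27ac lay over its TSS in DP and Pdgfra+ cells and not in Oct4+ cells, H3K4me1 lay upstream in the same populations, and H3K27me3 covered the promoter in Oct4+ cells alone. Within 20 kb of the TSS, H3K27ac peaks covered 0 kb in each of the 3 Oct4+ libraries, 13.2, 0 and 13.8 kb in DP replicates 1 to 3, and 5.24, 6.75 and 4.67 kb in Pdgfra+ replicates 1 to 3. The only overlap between the groups came from DP replicate 2, whose list held 3079 peaks and reached 17.6% of genes. Oct4+ replicate 2 had no peak there although its list reached 74.0% of genes.

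The peaks over the TSS were 4.78 kb wide in DP replicate 1 and 9.28 kb in DP replicate 3, and 5.24, 3.94 and 4.67 kb in Pdgfra+ replicates 1 to 3. By total signal, the DP peaks stood at the 73.9 and 91.0 percentile of their own lists and the Pdgfra+ peaks at the 58.5, 74.5 and 9.95 percentile, so the rank of the promoter varied widely between libraries. In DP cells most of the covered H3K27ac length was upstream of the TSS, with 76.8% and 63.6% in replicates 1 and 3. In Pdgfra+ cells less was upstream, with 1.37, 44.2 and 35.0% in replicates 1 to 3. DP replicates 1 and 3 also had peaks 8.3 to 8.5 kb and 13.6 to 14.4 kb before the TSS (3.05 and 5.36 kb wide in replicate 1, 2.44 and 2.09 kb in replicate 3), and the TSS peak of replicate 3 was itself wider than that of any Pdgfra+ library. Among Pdgfra+ libraries, replicate 2 had the nearer of these, at 8.2 kb, and no library had the farther. Both positions lie in or beside Gm19583, an annotated long non-coding RNA gene upstream of Pdgfra.

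H3K4me1 peaks within 20 kb of the Pdgfra TSS covered 0 kb in every Oct4+ library, 4.29, 19.0 and 11.9 kb in DP replicates 1 to 3, and 2.45, 0 and 7.15 kb in Pdgfra+ replicates 1 to 3. DP was the population with a peak in all 3 libraries. Of the covered length, 81.3 to 100% was upstream in DP and 58.4 to 100% in the 2 Pdgfra+ libraries with a peak. An element was centred 14.4 to 14.5 kb before the TSS, with peaks in DP replicates 1 and 3 and Pdgfra+ replicate 3 (83.7, 83.4 and 87.7 percentile of their lists) and a single stretch of 15.5 kb in DP replicate 2 that ran from this element to the TSS and stood at the 98.3 percentile. Its central sequence is the Pdgfra upstream element printed above. A neighbouring element 7.6 to 8.4 kb before the TSS was listed in 1 more library, with peaks in DP replicates 1 and 3 and Pdgfra+ replicates 1 and 3, and inside the long stretch of DP replicate 2. Farther out, at 28.6 to 28.7 and 33.6 to 33.9 kb before the TSS, H3K4me1 peaks were listed in DP replicates 2 and 3 and in no Oct4+ or Pdgfra+ library. The missing Pdgfra+ library, replicate 2, had the shortest list of all, and the longest H3K4me1 list (Oct4+ replicate 2, 16057 peaks) had no peak here.

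H3K27me3 had the reverse order. It covered 0, 7.37 and 12.1 kb within 20 kb of the Pdgfra TSS in Oct4+ replicates 1 to 3 and 0 kb in all 6 DP and Pdgfra+ libraries. In Oct4+ replicate 3 it formed a single domain of 12.1 kb across the TSS (86.2 percentile), and in Oct4+ replicate 2 a pair of peaks of 4.89 and 2.48 kb on either side of it (39.4 and 9.79 percentile). Oct4+ replicate 1 had the shortest list of the group, with 1629 peaks. The 3 DP lists, which had none, held 3798, 8672 and 6418 peaks and reached 20.1 to 31.9% of genes. The H3K27me3 peaks of Oct4+ replicates 2 and 3 overlapped the H3K27ac peaks of DP and Pdgfra+ cells, and no population had both marks at this promoter.

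**Figure D2:**
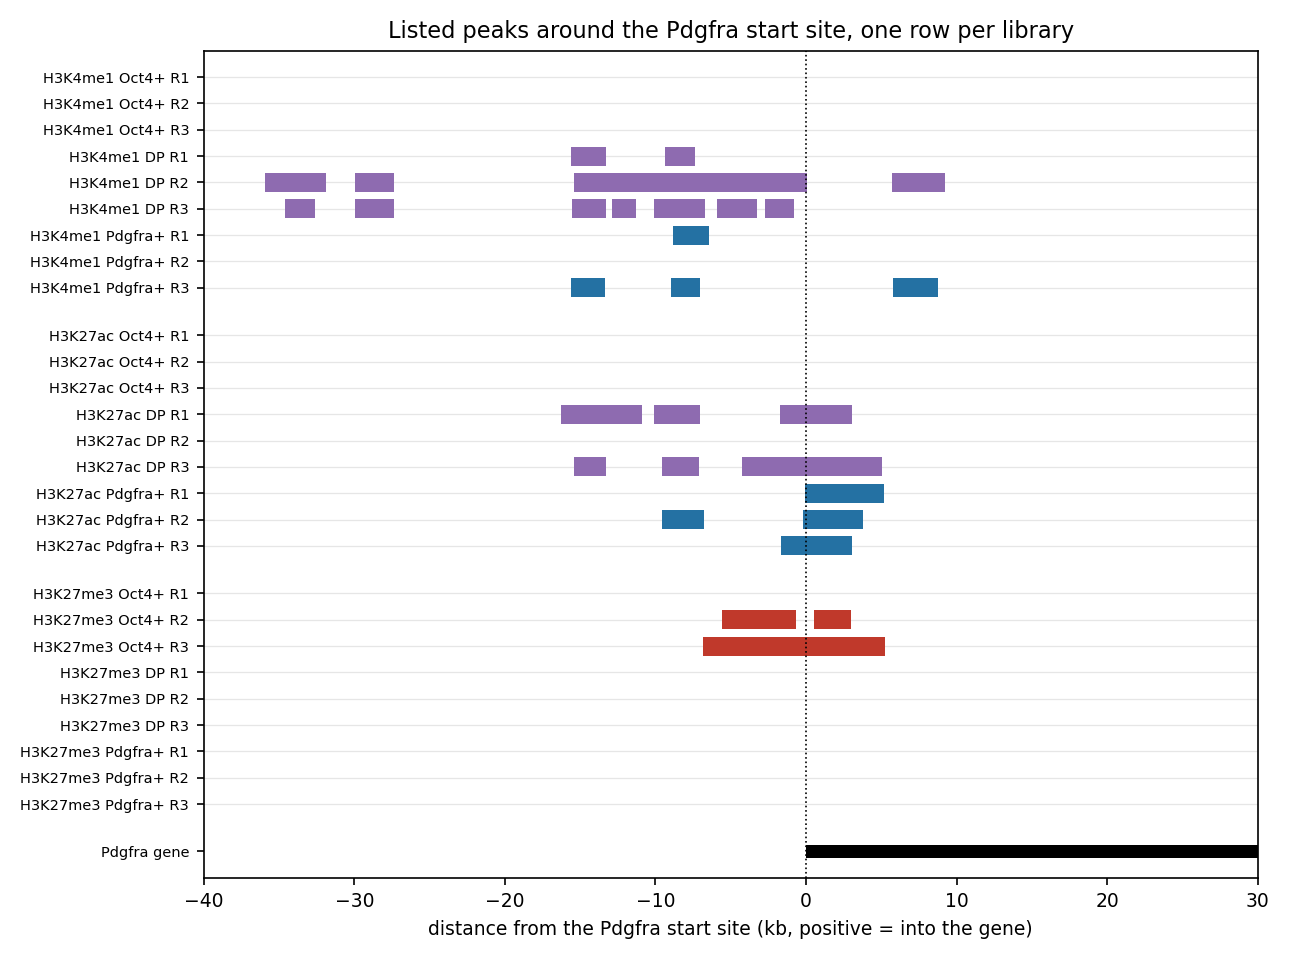
Listed peaks around the Pdgfra TSS in 27 libraries, with distance from the TSS in kb on the x axis, 1 row per library and colours for the population (Oct4+ red, DP purple, Pdgfra+ blue). H3K4me1 and H3K27ac peaks appear in DP and Pdgfra+ rows and the 3 H3K27me3 peaks in Oct4+ replicates 2 and 3, which covered 7.37 and 12.1 kb.

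The 6 DP and Pdgfra+ libraries were compared with the 3 Oct4+ libraries by an exact two-sided permutation test of covered length at every protein-coding gene, whose smallest possible p was 0.0119. At Pdgfra the mean H3K27ac length was 0 kb in Oct4+, 9.0 ± 7.8 kb in DP and 5.55 ± 1.08 kb in Pdgfra+ (SD, n = 3 each), a difference of 7.28 kb (exact permutation p = 0.0833, adjusted p = 0.266 over 17421 genes). For H3K4me1 the means were 0, 11.7 ± 7.34 and 3.20 ± 3.63 kb, a difference of 7.46 kb (exact permutation p = 0.143, adjusted p = 0.875 over 11254 genes). For H3K27me3 they were 6.49 ± 6.10, 0 and 0 kb, a difference of -6.49 kb (exact permutation p = 0.0833, adjusted p = 0.981 over 8268 genes). By limma the adjusted p was 0.215 for H3K4me1, 0.12 for H3K27ac and 0.322 for H3K27me3. With an equal number of peaks taken from each list, the differences shrank to 3.93 kb for H3K4me1, 3.87 kb for H3K27ac and -4.03 kb for H3K27me3. None of the differences passed either test, and no other gene passed the exact test. Genes called by the exact test were 0% of those tested for H3K4me1, 0% for H3K27ac and 0% for H3K27me3, with an unadjusted p under the threshold of 0.05 at 635, 1987 and 177 genes and limma calling 0, 555 and 0 genes. A gene at the smallest possible p had an adjusted p of 0.351 (H3K4me1), 0.208 (H3K27ac) or 0.981 (H3K27me3) by exact permutation. The exact test could therefore call no gene here, and its count of 0 does not show that genes did not differ. The differences between DP and Pdgfra+ at Pdgfra were within the spread of the libraries, with DP 8.52 kb higher in H3K4me1 (exact permutation p = 0.2) and 3.45 kb higher in H3K27ac (exact permutation p = 0.4), where 0.1 is the smallest possible p.

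Described by presence alone, the Pdgfra patterns were uncommon. H3K27ac in 0 of 3 Oct4+ and at least 2 of 3 libraries of each other population was found at 31 genes, or 0.178% of those with any H3K27ac peak. The same pattern of H3K4me1 was found at 240 genes (2.13%). H3K27me3 in at least 2 Oct4+ libraries and 0 of the other 6 was found at 146 genes (1.77%). The first and the last were shared by 3 genes, Pdgfra, Lpar3 (a lysophosphatidic acid receptor) and Tlr6 (a Toll-like receptor), and Pdgfra was the 1 gene with all 3. The patterns were written from Pdgfra's own counts, so this count describes the gene and tests nothing.

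Kit had a different arrangement. Its promoter carried H3K27ac in Oct4+ cells, a broad H3K27me3 domain in DP cells and neither in Pdgfra+ cells. Farther from the TSS, a pair of elements had listed H3K4me1 in Oct4+ libraries alone, as did 1 region nearest to Pdgfra. H3K27me3 within 20 kb of the Kit TSS covered 18.3, 17.7 and 9.26 kb in DP replicates 1 to 3 and 0 kb in all 6 Oct4+ and Pdgfra+ libraries. In each DP library this was 1 domain across the TSS, standing at the 82.7, 93.0 and 84.2 percentile of its list. The groups did not overlap. H3K27me3 in 3 of 3 DP and 0 of 6 other libraries was found at 147 of 8268 genes (1.78%). The lists without the domain held 1629, 2948 and 5785 peaks in Oct4+ replicates 1 to 3 and 1143, 2841 and 6151 in Pdgfra+ replicates 1 to 3. Those of DP replicates 1 to 3 held 3798, 8672 and 6418. Only replicate 3 of Oct4+ and of Pdgfra+ thus had a longer list than DP replicate 1. Whether list length bears on the absence was not tested.

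The 3 populations were compared at Kit by an exact permutation test of the F statistic over all partitions of the 9 libraries, whose smallest p was 0.00357. H3K27me3 gave 0, 15.1 ± 5.06 and 0 kb (exact permutation p = 0.0357, adjusted p = 0.548 over 8268 genes), and DP exceeded Pdgfra+ by 15.1 kb (exact permutation p = 0.1, the smallest possible). Across all genes, 0 passed this test in any mark, and the Kit domain did not pass after adjustment. For H3K27me3, 0.548 was also the lowest adjusted p of any gene. The joint comparison of DP and Pdgfra+ with Oct4+, in which a DP domain is diluted, gave a difference of 7.54 kb (exact permutation p = 0.321, adjusted p = 0.981 over 8268 genes).

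H3K27ac was listed at the Kit promoter in Oct4+ replicate 1 (3.22 kb, 78.5 percentile) and replicate 2 (1.18 kb, 34.5 percentile) and in no other library. Within 20 kb of the TSS it covered 5.78, 4.05 and 0 kb in Oct4+ replicates 1 to 3, 2.76 kb in DP replicate 3 and 2.33 kb in Pdgfra+ replicate 2, with 0 kb in the other 4. The DP and Pdgfra+ values came from a peak centred 14.6 to 14.7 kb inside the gene, while the Oct4+ peaks there were centred 17.2 to 17.5 kb inside. By overlap these peaks formed 1 merged region, listed in 2 Oct4+, 1 DP and 1 Pdgfra+ libraries. The means were 3.28 ± 2.97, 0.920 ± 1.59 and 0.776 ± 1.34 kb, and the difference of -2.43 kb did not pass (exact permutation p = 0.214, adjusted p = 0.484). Oct4+ replicates 1 and 2 had the longest H3K27ac lists, with 38619 and 65131 peaks, and as a share of each list's covered bases the difference turned to 3.17 bases per Mb (exact permutation p = 0.94). In a window of 50 kb, which takes in the distal elements described next, it was -10.6 kb (exact permutation p = 0.0833, adjusted p = 0.196).

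H3K4me1 at Kit followed Oct4+ at a pair of distal elements. A peak 35.6 to 36.5 kb before the TSS was listed in all 3 Oct4+ libraries (60.9, 74.9 and 87.6 percentile) and in none of the other 6. Inside the gene, 22 to 26.1 kb after the TSS and within an intron, all 3 Oct4+ libraries had H3K4me1 (up to the 94.0 percentile in replicate 2 and the 93.2 in replicate 3) and the other 6 had none. H3K27ac peaks of Oct4+ replicates 1 and 2 lay at both elements. The intronic element is the Kit sequence printed above, with the ESRR motif, the binding site of orphan nuclear receptors that include the pluripotency factor ESRRB. The centre of the element before the TSS held none of the 7 motifs. A different element, 48.4 to 49.6 kb inside Kit, was listed in 3 of 3 DP, 2 of 3 Pdgfra+ and 1 of 3 Oct4+ libraries. These elements lay outside the 20 kb window, within which H3K4me1 covered 3.40 kb in Oct4+ replicate 2, 2.92 and 1.36 kb in DP replicates 2 and 3, 1.73 kb in Pdgfra+ replicate 3 and 0 kb in the other 5, so the 3 populations overlapped. With a window of 50 kb, which takes in both Oct4+ elements, the difference of DP and Pdgfra+ from Oct4+ was -6.6 kb instead of -0.131 kb (exact permutation p = 0.0476, adjusted p = 0.618 by the Benjamini-Hochberg method). The pair of Oct4+ elements was picked after the values were seen. H3K4me1 regions listed in 3 Oct4+ and no other libraries were 2 of 15 nearest to Kit, 1 of 14 nearest to Pdgfra and 0 of 7 nearest to Kdr. The one nearest to Pdgfra lay 67.0 kb before its TSS. A share of such regions over the whole genome was not computed.

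**Figure D3:**
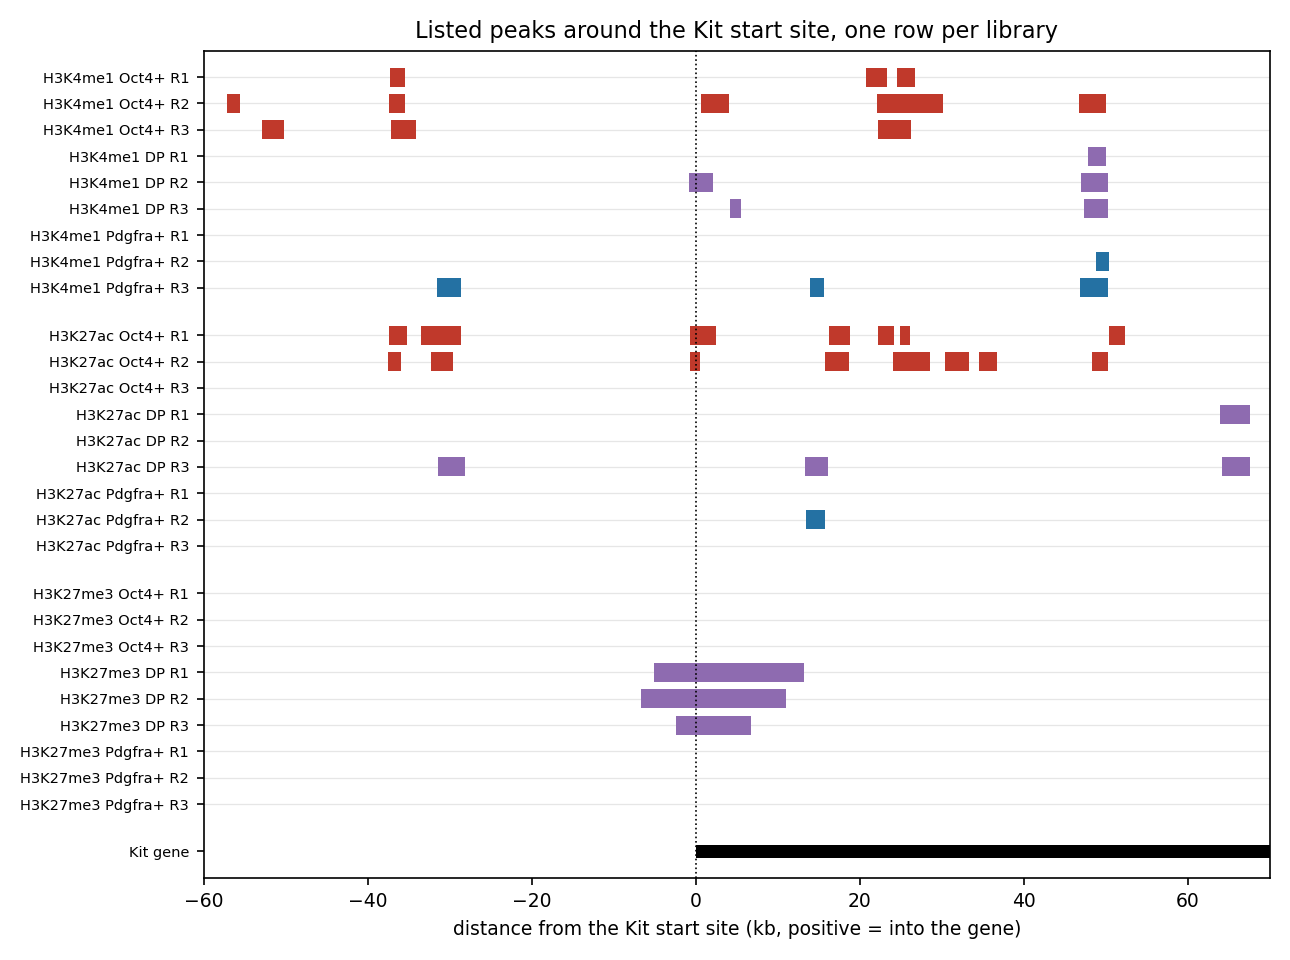
Listed peaks around the Kit TSS in 27 libraries, with distance from the TSS in kb on the x axis, 1 row per library and colours for the population (Oct4+ red, DP purple, Pdgfra+ blue). The H3K27me3 domain of 9.26 to 18.3 kb appears in the 3 DP rows alone, and the H3K4me1 peaks near -36 and +24 kb in the 3 Oct4+ rows alone.

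Kdr had no listed H3K27ac within 20 kb of its TSS in any of the 9 libraries, as was true of 4517 of 21938 genes (20.6%). Its promoter carried H3K27me3 in all 3 populations. The mark covered 0, 4.03 and 8.21 kb in Oct4+ replicates 1 to 3, 11, 8.44 and 4 kb in DP replicates 1 to 3 and 0, 0 and 7.51 kb in Pdgfra+ replicates 1 to 3. The 3 libraries without a peak were the ones with the shortest H3K27me3 lists, of 1143, 1629 and 2841 peaks. A peak in at least 1 library of each population was common, at 3631 of 8268 genes (43.9%). The means of 4.08 ± 4.10, 7.80 ± 3.53 and 2.5 ± 4.33 kb overlapped, and DP and Pdgfra+ together differed from Oct4+ by 1.07 kb (exact permutation p = 0.75, adjusted p = 1.0 over 8268 genes). This direction was not stable, since it turned to -49.6 bases per Mb as a share of covered bases and to -0.966 kb without Oct4+ replicate 1. H3K4me1 within 20 kb was limited to a peak 6.7 to 6.9 kb inside the gene in DP replicate 2 (3.56 kb) and Pdgfra+ replicate 1 (2.60 kb).

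**Figure D4:**
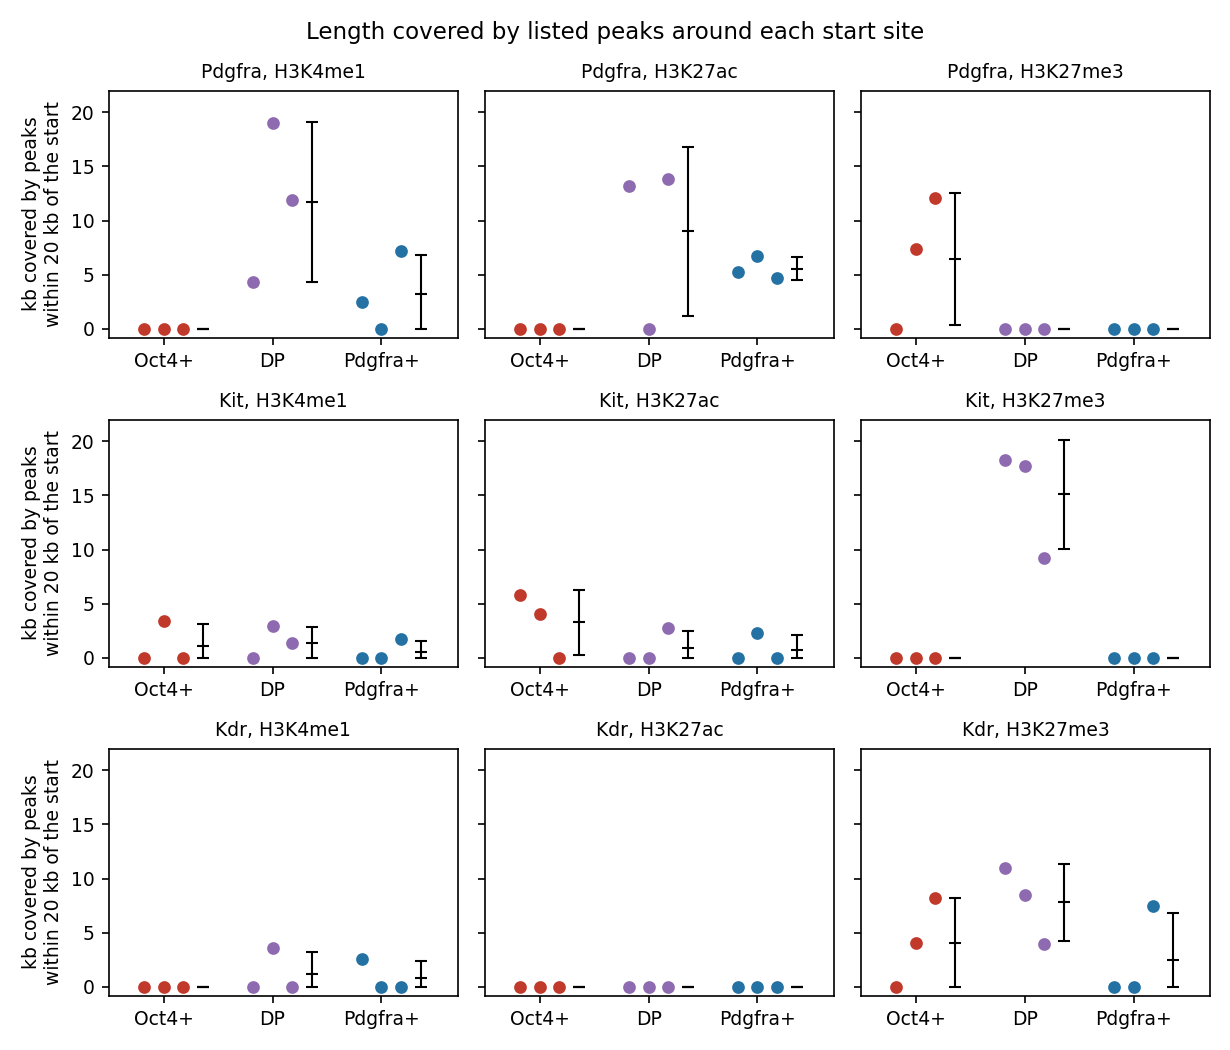
Length in kb covered by listed peaks within 20 kb of the TSS of Pdgfra, Kit and Kdr for H3K4me1, H3K27ac and H3K27me3, with 1 point per library and the mean ± SD of 3 libraries in black (the lower bar stops at 0). H3K27me3 was found in Oct4+ at Pdgfra (0, 7.37 and 12.1 kb), in DP at Kit (9.26 to 18.3 kb) and in all 3 populations at Kdr.

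The 3 promoters therefore differed in where they carried H3K27me3, counted as libraries with a peak from 1 kb upstream to 100 bases downstream of the TSS. Pdgfra had it in 2 Oct4+, 0 DP and 0 Pdgfra+ libraries, Kit in 0, 3 and 0, and Kdr in 2, 3 and 1. For H3K27ac the counts were 0, 2 and 3 at Pdgfra, 2, 0 and 0 at Kit and 0, 0 and 0 at Kdr. Among the other genes of the window, the homeobox gene Gsx2, the nearest protein-coding neighbour of Pdgfra, had H3K27me3 at its promoter in 3, 3 and 2 libraries. Its TSS is 76.7 kb from that of Pdgfra, and its domain was listed in every population. The neighbours beyond Kdr had promoter H3K27ac in most libraries, in 3, 3 and 3 libraries at Tmem165, 3, 2 and 3 at Srd5a3 and 3, 2 and 3 at Clock, the circadian transcription factor. Chic2, on the far side of Pdgfra, had 2, 2 and 2.

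Between the genes, peaks gathered at several elements. An element listed in all 3 populations lay 226 kb after the Pdgfra TSS and 196.4 to 197.5 kb before that of Kit, and is the intergenic sequence printed above. H3K27ac was listed there in Oct4+ replicates 1 and 2, all 3 DP and Pdgfra+ replicates 1 and 2, and H3K4me1 in all 3 DP and Pdgfra+ replicates 2 and 3 but in no Oct4+ library. The short H3K27ac list of DP replicate 2, which had 2 peaks in the whole window, included it. Upstream of Pdgfra, 198.4 to 199.6 kb before its TSS in an intron of the long non-coding RNA gene Gm6116, H3K4me1 was listed in 2 Oct4+, 3 DP and 2 Pdgfra+ libraries. A further H3K4me1 element, 206.8 kb after the Pdgfra TSS, was likewise in 3 DP, 2 Pdgfra+ and 0 Oct4+ libraries (11.1 to 75.6 percentile). On the Kdr side an element 152 to 152.6 kb past the Kdr TSS had H3K27ac in DP replicates 1 and 3 and Pdgfra+ replicates 1 and 2, H3K4me1 in DP replicate 2 and Pdgfra+ replicate 3, and neither in Oct4+. Which gene, if any, these elements act on cannot be told from peak lists.

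**Figure D5:**
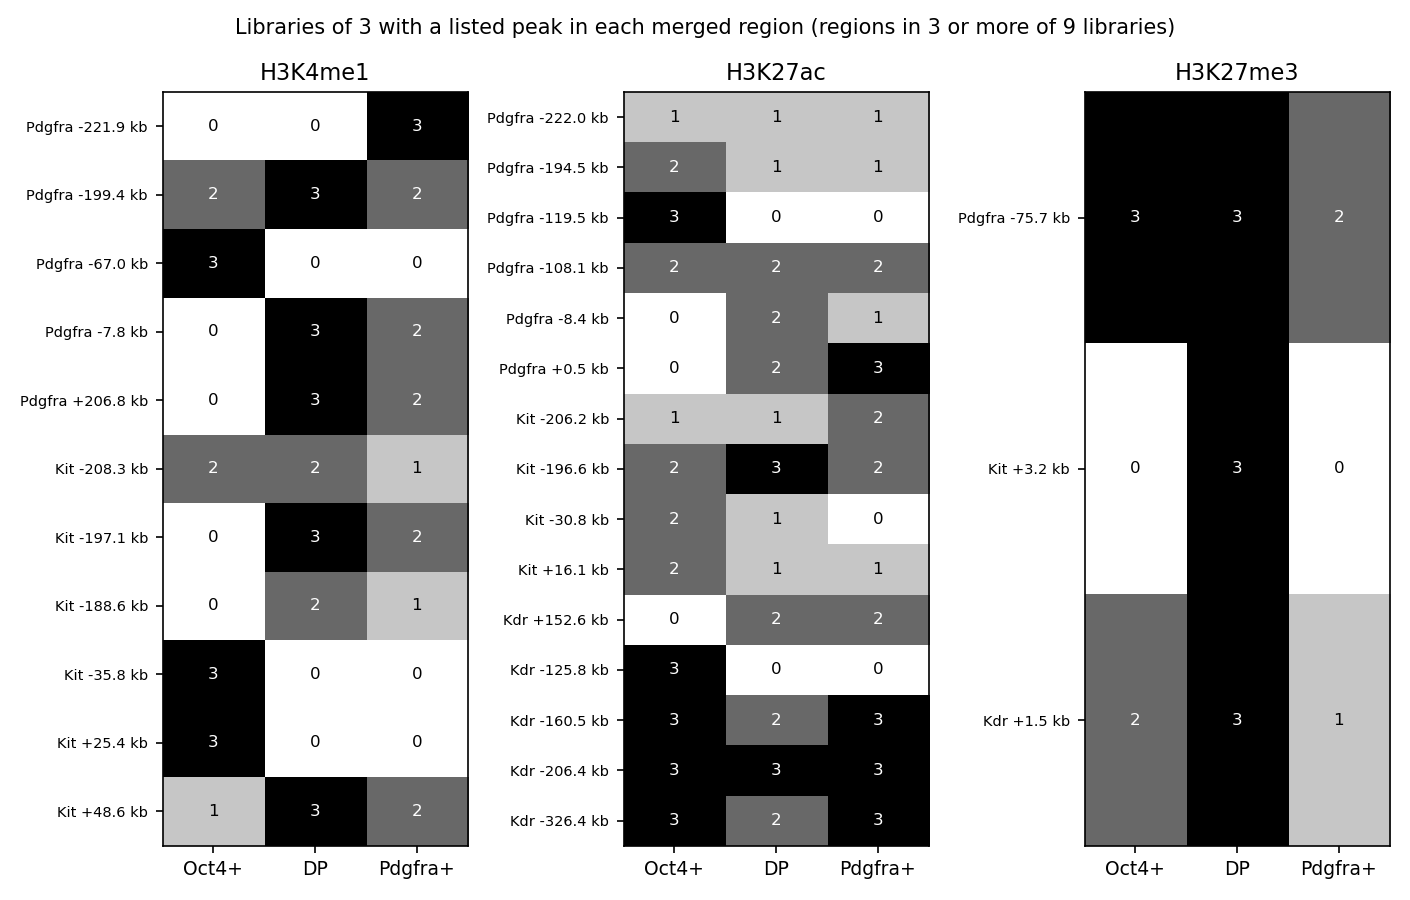
Number of libraries of 3 with a listed peak (0 to 3, white to black) in each merged region found in 3 or more of 9 libraries, for H3K4me1, H3K27ac and H3K27me3, with rows named by the nearest gene and the distance of the centre from its TSS in kb. For H3K27me3, Gsx2 (Pdgfra -75.7 kb), the Kit promoter and the Kdr promoter read 3, 3, 2; 0, 3, 0; and 2, 3, 1.

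H3K9me3 was not part of the pattern at the receptors. None of the 3 genes had a listed H3K9me3 peak within 20 kb of the TSS in any of 9 libraries, which held for 12013 of 21938 genes (54.8%). The window did hold H3K9me3 between the genes, and the region that ranked highest, 158.5 to 160.5 kb before the Pdgfra TSS at the 3′ end of Chic2 (chr5:74988947-74998082), was listed in 9 of 9 libraries at the 94.4 to 99.1 percentile.

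Relatives of the receptors and their ligands were read from lists of 5 and 15 genes. In each list and mark 0 genes passed the exact test, in which no gene could reach the threshold after adjustment. Among the relatives, the median difference of DP and Pdgfra+ from Oct4+ was 4.27 kb for H3K27me3 (1.27 kb over all genes tested) and -0.904 kb for H3K27ac (-1.58 kb over all). Pdgfrb, the paralogue of Pdgfra, had H3K27me3 of 26.3, 24.8 and 16.8 kb in DP replicates 1 to 3 and of 0, 2.47 and 26.6 kb in Pdgfra+ replicates 1 to 3, with 0 kb in every Oct4+ library, the reverse of the order at Pdgfra. Its H3K4me1 covered 3.95 to 13.6 kb in Oct4+ and 1.72 to 8.85 kb in DP libraries and 0 kb in each Pdgfra+ library. Flt1, which encodes a VEGF receptor that binds VEGFA tightly with weak kinase activity, was nearer to Pdgfra in H3K27ac. That mark was listed in 0 Oct4+, 2 DP and 2 Pdgfra+ libraries, and H3K4me1 in 0, 1 and 1. Its H3K27me3 was listed in 3, 3 and 0 libraries (4.10 to 20.1 kb in Oct4+, mean 5.54 kb in DP). At Pdgfra, by contrast, no DP library had H3K27me3.

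Among the 15 ligands and co-receptors, the median H3K27ac difference was -2.44 kb (-1.58 kb over all genes tested) and the H3K27me3 difference 2.47 kb (1.27 kb over all). Vegfa, the main ligand of KDR, had H3K27ac lengths of 2.78, 1.27 and 0 kb in Oct4+, 6.85, 5.54 and 6.99 kb in DP and 5.89, 4.23 and 6.81 kb in Pdgfra+ libraries, and was the 1 gene of 13 tested whose 6 DP and Pdgfra+ libraries lay above all Oct4+ libraries (0.672% of all genes tested). Vegfc, a ligand of lymphatic growth, was the 1 gene with the reverse, at 7.81, 6.08 and 3.02 kb in Oct4+ and 0 kb in the other 6 (5.44% of all genes tested), a share near that over all genes. Pdgfa, the ligand that binds PDGFRA, had H3K27ac in 2, 3 and 2 libraries, and Kitl, which encodes stem cell factor, in none of 9. For endothelial and blood markers, which would accompany Kdr in vessels, the number of 8 genes with H3K27ac was 1 to 6 per Oct4+ library, 0 to 2 per DP library and 0 or 1 per Pdgfra+ library. The share over all protein-coding genes was 29.6 to 74.0%, 17.6 to 47.7% and 24.7 to 33.7% per library of these populations.

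The genes whose covered length over all 36 libraries and 4 marks was most like that of each receptor were named as a description. The libraries share their mark, so r follows which marks a gene carries. For Pdgfra they were Myl3 (Pearson's r = 0.937), Pth1r (0.922), Creb3l1 (0.918), Podxl (0.907) and Lhfpl2 (0.901), all n = 36, of which Pth1r encodes a parathyroid hormone receptor and Podxl a sialomucin of epithelial surfaces. Myl3 and Pth1r, on chromosome 9, overlap each other, so their windows share peaks, and each had H3K4me1 in 0 Oct4+, 3 DP and 3 Pdgfra+ libraries and H3K27me3 in all 3 Oct4+ libraries, with H3K27me3 also in 1 DP library at Myl3 and 3 at Pth1r. Unlike Pdgfra, they had H3K27ac in Oct4+ cells, in 2 libraries at Myl3 and 1 at Pth1r. For Kit the leading genes were Gm20431 (r = 0.978), Uggt1 (0.971), Vwce (0.970), Fchsd2 (0.959) and Hilpda (0.955), each with H3K27me3 in 3 DP libraries. For Kdr they were Nin (0.970), Magel2 (0.967), C1ql3 (0.961), Dlx1 (0.958) and Mthfsd (0.955).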

How the data were processed

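CUT&Tag for H3K4me1, H3K27ac, H3K27me3 and H3K9me3 was read from 36 peak lists, 3 replicates of each mark in Oct4+, DP and Pdgfra+ cells, and 3 IgG samples were not used here. Per the labels, the submitters' processing notes name the mm10 build, bcl2fastq 2.19.1, Bowtie2, SAMtools 1.12, deepTools, SEACR and bedtools 2.26.0. The authors called peaks per library against IgG with SEACR (stringent), and the deposited total and maximum signal of each peak are unscaled coverage, so signal was ranked only within a list. All peak ends fell within GRCm38 chromosomes. The number of reads is not given, so depth is unknown.

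Peaks were placed on GENCODE vM21 (21938 protein-coding genes, 1 TSS each) and sequences taken from the GRCm38.p6 genome and RefSeq starts. The bases covered by peaks within 20 kb of each TSS were compared by exact two-sided permutation over libraries (6 against 3, 3 populations, or 3 against 3), adjusted by the Benjamini-Hochberg method over all genes with a covered base, with a threshold of 0.05. limma 3.58.1 on log2(bases + 500) was an alternative. Overlapping peaks of a mark were merged into regions. Named were the 3 receptors, protein-coding genes with a TSS in the window, list genes (counts, with examples), the 5 genes most like each receptor and up to 3 regions per gene and mark in most libraries. Regions and list genes outside this rule were picked after their values were seen. Members and lists (receptor relatives, ligands and co-receptors, endoderm, pluripotency, fibroblast, endothelial and blood markers) were chosen with earlier results of these data known. The tests were tested on simulated data. Python 3.11.15, NumPy 2.4.6, pandas 2.3.3 and Matplotlib 3.10.9 were used.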

Additional observations from a re-analysis of the deposited data

How the results depend on the processing

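The differences at Pdgfra kept their direction in H3K4me1, H3K27ac and H3K27me3 under every alternative that gave a value. This was almost wholly fixed in advance, since all libraries on 1 side of each comparison held 0 kb within 20 kb of the TSS. Only the windows of 50 and 100 kb could have turned a direction. None of the differences at the 3 receptors crossed the threshold under any alternative. Leaving out each library in turn gave 5.16 to 8.95 kb for H3K4me1, 5.97 to 8.73 kb for H3K27ac and -9.73 to -3.68 kb for H3K27me3 at Pdgfra, and 5.39 to 9.05 kb for H3K27me3 at Kit. The H3K27me3 difference at Pdgfra rests on 2 of 3 Oct4+ libraries and was -3.68 kb without Oct4+ replicate 3.

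The lengths at Pdgfra were smaller with fewer peaks or a narrower window. For H3K4me1 they were 3.93 kb with an equal number of peaks, 4.48 kb with the common minimum of total signal and 1.46 kb within 5 kb. For H3K27ac they were 3.87, 4 and 4.62 kb, and for H3K27me3 -4.03, -4.03 and -5.6 kb. At Kit, wider windows gave longer differences, of -6.6 kb (50 kb) and -7.84 kb (100 kb) for H3K4me1 (exact permutation p = 0.0476 and 0.0238, adjusted p = 0.618 and 0.475) and -10.6 and -11.7 kb for H3K27ac.

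Directions turned in 3 comparisons. For H3K4me1 at Kit, the difference of -0.131 kb became 0.486 kb with a common minimum of total signal, 3.71 bases per Mb as a share of covered bases, 16.7 percentage points as presence of a peak, 0.15 log2 in limma and -0.697 to 1 kb when leaving out each library. For H3K27ac at Kit, the share of covered bases gave 3.17 bases per Mb against -2.43 kb. For H3K27me3 at Kdr, 1.07 kb became -2.01 kb with the strongest peaks of each list, -49.6 bases per Mb as a share and -0.966 to 3.14 kb when leaving out each library. The cause was not tested. limma called 555 genes for H3K27ac and 845 for H3K9me3, where the exact test called 0. Its adjusted p over the 3 receptors and their marks stayed above the threshold.

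The labels do not say whether equal replicate numbers pair the samples. Same-number correlations of deviations ran from -0.138 to 0.223 (H3K4me1), -0.163 to 0.1 (H3K27ac), -0.18 to 0.196 (H3K27me3) and -0.062 to 0.0109 (H3K9me3). Between libraries of other numbers they ran from -0.284 to 0.238, -0.115 to 0.148, -0.22 to 0.248 and -0.0542 to 0.0757. With 3 libraries per group, such values cannot settle whether the samples were paired. With the replicate number as a block, 0 genes were called in any mark, and the test of 3 populations gave p = 0.0556 for H3K4me1 at Pdgfra and 0.111 for H3K27me3 at Kit by exact permutation. An equal number of peaks per list left no value for H3K4me1 at Kit and Kdr, H3K27ac at Kit and H3K27me3 at Kdr. The strongest peaks of each list left none for H3K4me1 at Kit and Kdr, and the common minimum none for H3K27ac at Kit. Genes covered in at least 3 libraries excluded H3K4me1 at Kdr and H3K27me3 at Pdgfra. An alternative chosen after seeing the data left out the shortest list of each mark, and the Pdgfra patterns were then found at 31 genes (H3K27ac), 181 (H3K4me1) and 146 (H3K27me3), and the Kit pattern at 148. Requiring a peak over at least 50% of the promoter left 3 libraries with H3K27ac and 1 with H3K27me3 at Pdgfra.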
